A study of Mus musculus with 4 samples.

Results

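Epicardial mesothelial cells are the epithelial sheet that covers the outer surface of the heart. Here they were taken from Drop-seq profiles of whole embryonic mouse hearts, in which single cells are lysed in droplets and each captured transcript end is counted once by its unique molecular identifier (UMI). Cells were chosen by their own transcripts: a cell was counted as epicardial when at least 2 of 8 mesothelial marker transcripts (Upk3b, Upk1b, Msln, Krt7, Krt19, Lrrn4, Gpm6a and Aldh1a2) were seen in it and less than 1% of its UMIs came from the cardiomyocyte genes Tnnt2, Actc1, Myh6 and Myh7. The rule found 642 cells among 21495 kept cells with at least 500 UMIs and at most 20% mitochondrial UMIs, out of 24849 cells in the deposited table.

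The tested hearts carried Wt1 CreERT2/+; Lats1/2 F/F; Rosa26mTmG/+ and are called Lats1/2 CKO (conditional knockout), and the control hearts carried Wt1 CreERT2/+; Rosa26mTmG/+. Both genotypes thus had a tamoxifen-dependent Cre recombinase at one Wt1 allele and the mTmG reporter, which makes membrane EGFP once Cre has acted. Hearts of embryonic days E13.5 and E14.5 gave 1 library per genotype and stage, and 238 epicardial cells came from CKO and 119 from control hearts at E13.5, and 205 from CKO and 80 from control hearts at E14.5. The number of embryos behind each library, the tamoxifen schedule and any sorting are not given in the sources used here.

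In the embryo the epicardium spreads from the proepicardium over the myocardium, sends retinoic acid, Igf2 and other growth signals inward, and releases cells that leave the sheet and become fibroblasts and mural cells. The kinases Lats1 and Lats2 stand at the end of the Hippo kinase chain and phosphorylate the coactivators YAP and TAZ, which keeps these out of the nucleus. In the nucleus YAP and TAZ bind TEAD factors and raise genes such as Ctgf, Cyr61 and Ankrd1. The comparison asks how epicardial cells differ when Lats1 and Lats2 are deleted in Wt1-expressing cells.

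Epicardial cells held 866675 UMIs in CKO and 447164 in control hearts at E13.5, and 526819 in CKO and 180172 in control hearts at E14.5. Their median was 2543.5 UMIs per cell in CKO and 1932 in control hearts at E13.5, and 1251 in CKO and 1181.5 in control hearts at E14.5. The deepest single epicardial cell held 2.56% of the epicardial UMIs in CKO E13.5, 7.87% in control E13.5, 12.01% in CKO E14.5 and 10.2% in control E14.5, so 1 cell weighs on genes of low count. No doublets were called, and intervals without the deepest 5% of cells of each library are given where a genotype interval described as off 0 came to include 0. Haemoglobin and other erythroid transcripts summed to 3793 CPM (UMIs scaled to the same total in every set of cells) in CKO and 365 CPM in control epicardial cells at E13.5, and to 2234 CPM in CKO and 2636 CPM in control cells at E14.5, so the control E13.5 library stood apart. In the other kept cells the same sum was 5411 CPM in CKO and 3903 CPM in control hearts at E13.5, and 6968 CPM in CKO and 8777 CPM in control hearts at E14.5. Barcodes seen in more than 1 library numbered 14, and 1 of them belonged to an epicardial cell. All intervals on single libraries are 95% intervals that cover counting error only, because cells of 1 library are not replicates.

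The marker transcripts that chose the cells are a description. Upk3b, a uroplakin of mesothelial surfaces, was seen in 89.5% of CKO and 93.3% of control epicardial cells at E13.5, and in 86.8% of CKO and 90.0% of control epicardial cells at E14.5, against 0.55 to 1.72% of the other cells of the 4 libraries. Its level was 2296 CPM in CKO and 2214 CPM in control cells at E13.5, and 1967 CPM in CKO and 2431 CPM in control cells at E14.5. The gene lies at chr5:136038496-136046487 on the plus strand (GRCm38). Msln, the surface protein mesothelin, stood at 520 CPM in CKO and 510 CPM in control cells at E13.5, and at 1016 CPM in CKO and 910 CPM in control cells at E14.5. Of the 8 markers, only the simple keratin Krt19 had a counting interval above 0 at both stages. It had 511 CPM in CKO and 304 CPM in control cells at E13.5 (log2 ratio 0.75, interval 0.47 to 1.04) and 588 CPM in CKO and 278 CPM in control cells at E14.5 (1.07, 0.65 to 1.55). Krt7, its usual partner in simple epithelia, stood at 420 CPM in CKO and 284 CPM in control cells at E13.5, and at 397 CPM in CKO and 333 CPM in control cells at E14.5. Gpm6a, a membrane glycoprotein, ranged from 344 to 427 CPM over the 4 libraries, and Aldh1a2, the enzyme that makes retinoic acid, ranged from 271 to 420 CPM.

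**Figure D1:**
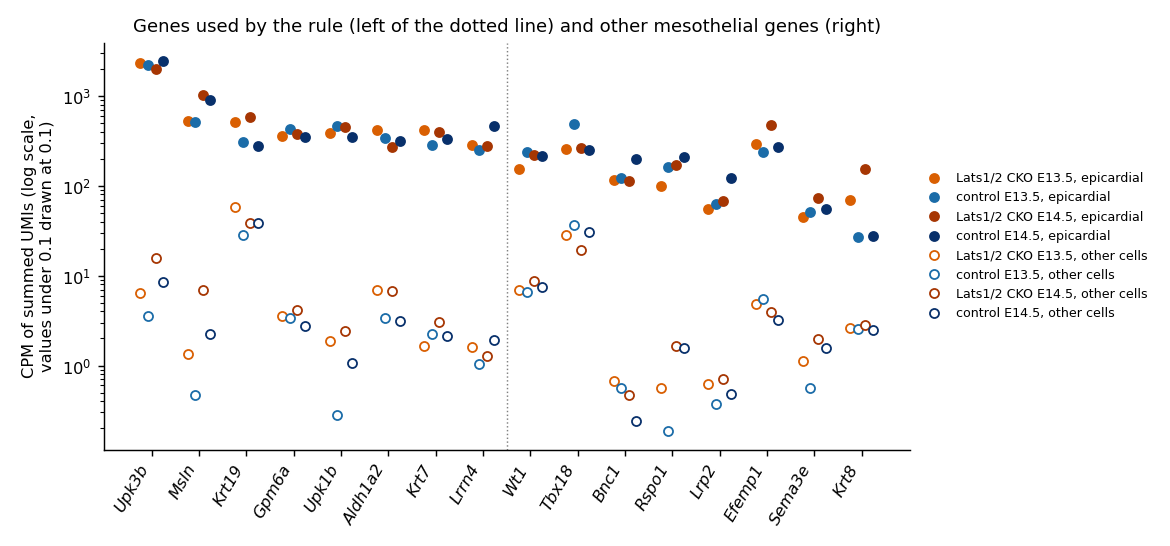
Level of the 8 rule markers and of mesothelial genes outside the rule in epicardial cells of each library, as CPM on a log axis, with Lats1/2 CKO left of control at each stage. Filled points are the epicardial cells of 1 library and open points its other kept cells. Upk3b stands highest in all 4 epicardial sets (1967 to 2431 CPM), and every gene drawn is lower in the other cells of the same library.

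The edge of the rule lay between cells with 1 marker and cells with 2. Just inside it stood 124 cells with 2 markers, at a median of 956 UMIs. Of these, 59.7% had an Upk3b UMI, 83.1% a Col1a1 UMI, 15.3% a Postn UMI and 21.0% a Wt1 UMI. Just outside it stood 561 cells with 1 marker, at a median of 1837 UMIs. Of those, 22.8% had an Upk3b UMI, 53.3% Col1a1, 49.6% Postn and 7.0% Wt1. The Upk3b shares follow from the rule, which uses this gene. Postn, a matrix gene of fibroblasts and valve mesenchyme that the rule did not use, was seen in fewer of the cells inside. Among 304 cells with at least 5 markers, at a median of 3012 UMIs, 99.0% had an Upk3b UMI and 48.4% a Wt1 UMI. None of these shares was matched for depth. As a level, Wt1 stood at 137 CPM in cells with 2 markers and at 213 CPM in cells with at least 5. A further 86 cells had at least 2 markers but at least 1% cardiomyocyte transcripts and were left out, 41 in CKO and 9 in control hearts at E13.5 and 24 in CKO and 12 in control hearts at E14.5.

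Genes that the rule did not use described the same cell type. Counts were summed per library, and edgeR's quasi-likelihood test with Benjamini-Hochberg adjustment at 0.05 placed 2237 of 16538 genes (13.53%) higher and 2928 (17.70%) lower in epicardial than in other cells. Because transcripts chose the cells, these calls describe what the rule picked and are given without p-values. Of 24 mesothelial genes outside the rule, 22 were higher in epicardial cells, with a median log2 ratio of 4.06, against -0.08 over all genes. Bnc1, a zinc finger factor of mesothelium, averaged 137 ± 41.7 CPM in epicardial and 0.49 CPM in other cells (SD, n = 4 libraries). The Wnt-enhancing ligand Rspo1 averaged 161 ± 46.2 CPM in epicardial and 0.98 CPM in other cells. Wt1, the zinc finger factor whose locus carries the Cre (chr2:105126529-105173616, plus strand), averaged 207 ± 36.3 CPM in epicardial and 7.39 CPM in other cells. Tbx18, a T-box factor of the epicardium, averaged 314 ± 116 CPM in epicardial and 28.6 CPM in other cells. The lower gene of the list was the secreted chaperone Clu, at 132 ± 67.4 CPM in epicardial and 154 CPM in other cells.

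The genes with the largest ratios in every library were of several kinds. Secreted proteins among them were the apelin-receptor ligand Apela, at 379 ± 85.9 CPM in epicardial and 3.79 CPM in other cells, the matrix protein Efemp1, at 317 ± 109 CPM in epicardial and 4.39 CPM in other cells, and the class 3 semaphorin Sema3e. Endocytic receptors were Lrp2 (megalin), at 77.1 ± 30.5 CPM in epicardial and 0.54 CPM in other cells, and the folate receptor Folr1, at 101 ± 6.99 CPM in epicardial and 1.41 CPM in other cells. Crb2, which sets the apical domain of epithelia, averaged 74.0 ± 19.6 CPM in epicardial and 0.77 CPM in other cells, and the tight junction gene Cldn15 averaged 84.0 ± 25.5 CPM in epicardial and 1.52 CPM in other cells. The calcium-binding protein gene S100a6 was the most abundant of these 20 genes, at 973 ± 267 CPM in epicardial and 28.1 CPM in other cells.

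Epithelial and mesenchymal gene lists were both represented. Over all genes tested, 13.53% were higher and 17.70% lower in epicardial than in other cells. Of 22 polarity and junction genes tested, 11 were higher and 5 lower in epicardial cells. Of 18 genes of the epithelial-mesenchymal transition, 2 were higher and 9 lower. Of 20 fibroblast genes, 12 were higher and 6 lower, and Col1a1, a chain of type I collagen, averaged 4311 ± 1197 CPM in epicardial and 382 CPM in other cells, while Postn averaged 130 ± 58.0 CPM in epicardial and 713 CPM in other cells. After each cell was thinned to 500 UMIs, Col1a1 or Col1a2 was seen in 92.9% of CKO and 94.96% of control epicardial cells at E13.5, and in 95.1% of CKO and 97.5% of control epicardial cells at E14.5, against 25.4 to 33.1% of other cells. Without thinning, cells with at least 1% cardiomyocyte genes, a type that should lack Col1a1, had a Col1a1 UMI in 4.997 to 15.1% at median depths of 1040 to 2593 UMIs. Basement membrane genes and their receptors were higher for 16 and lower for 2 of 29 tested, among them the nephronectin gene Npnt at 286 ± 45.8 CPM in epicardial and 12.7 CPM in other cells.

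Signals sent by the sheet followed no single direction. Of 31 secreted signal genes tested, 15 were higher and 10 lower in epicardial cells, beside 13.53% higher and 17.70% lower over all genes tested. The repellent ligand Sema3d averaged 343 ± 38.7 CPM in epicardial and 20.2 CPM in other cells, Bmp4 averaged 234 ± 25.4 CPM in epicardial and 34.5 CPM in other cells, and Fgf9, which acts on the myocardium, averaged 53.9 ± 9.37 CPM in epicardial and 10.7 CPM in other cells. Cell cycle genes were lower, with 25 of 26 genes of G2 and M phase and 11 of 26 S phase genes lower and 0 of either list higher. After thinning, at least 2 of the 26 G2 and M phase genes were seen in 23.1% of CKO and 17.6% of control epicardial cells at E13.5, and in 29.8% of CKO and 25.0% of control epicardial cells at E14.5. The other cells stood at 30.8% in CKO and 34.4% in control hearts at E13.5, and at 35.7% in CKO and 39.8% in control hearts at E14.5.

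Transcripts of other cell types were present at levels that differed by type. For scale, the 8 rule markers together summed to 4790 to 5423 CPM over the 4 epicardial sets. Cardiomyocyte markers summed to 4289 CPM in CKO and 3766 CPM in control epicardial cells at E13.5, and to 6008 CPM in CKO and 5839 CPM in control epicardial cells at E14.5, against 32571 to 45464 CPM in other cells. These markers include genes that the rule capped, so the gap to other cells follows in part from the rule. A large part of the epicardial sum was the myosin light chain gene Myl7, at 2427 CPM in CKO and 2681 CPM in control cells at E13.5, and at 3236 CPM in CKO and 2331 CPM in control cells at E14.5, which is above its 1586 to 2119 CPM in the other cells. Endothelial markers summed to 501 to 599 CPM, mural markers to 316 to 555 CPM and valve mesenchyme markers to 322 to 787 CPM over the 4 epicardial sets. In other cells these sums were 729 to 1175 CPM, 1915 to 2659 CPM and 1361 to 2555 CPM. Macrophage markers summed to 64.9 to 180 CPM, with the leukocyte gene Ptprc at 0 in all 4. The neural crest gene Sox10 was at 0 in all 4, and markers of lung and other epithelium summed to 17.9 to 32.3 CPM with Nkx2-1 and Sftpc at 0. Their part in the results below was not tested.

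Epicardial cells made up a larger share of the CKO libraries at both stages. They were 4.02% of 5915 CKO cells and 2.66% of 4478 control cells at E13.5, a ratio of 1.51 (interval 1.21 to 1.90). At E14.5 they were 3.66% of 5597 CKO cells and 1.45% of 5505 control cells, a ratio of 2.52 (1.94 to 3.31). Among cells under 1% cardiomyocyte transcripts the ratios were 1.497 and 2.47. Over the other cell filters and marker rules tried the E13.5 ratio lay between 1.34 and 1.53 and the E14.5 ratio between 1.98 and 3.10. The lowest value at E13.5, in cells with no haemoglobin UMI, had an interval of 0.863 to 2.05. With 1 library per group the shares have no replicate check, and cell loading and dissection cannot be told apart from genotype.

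**Figure D2:**
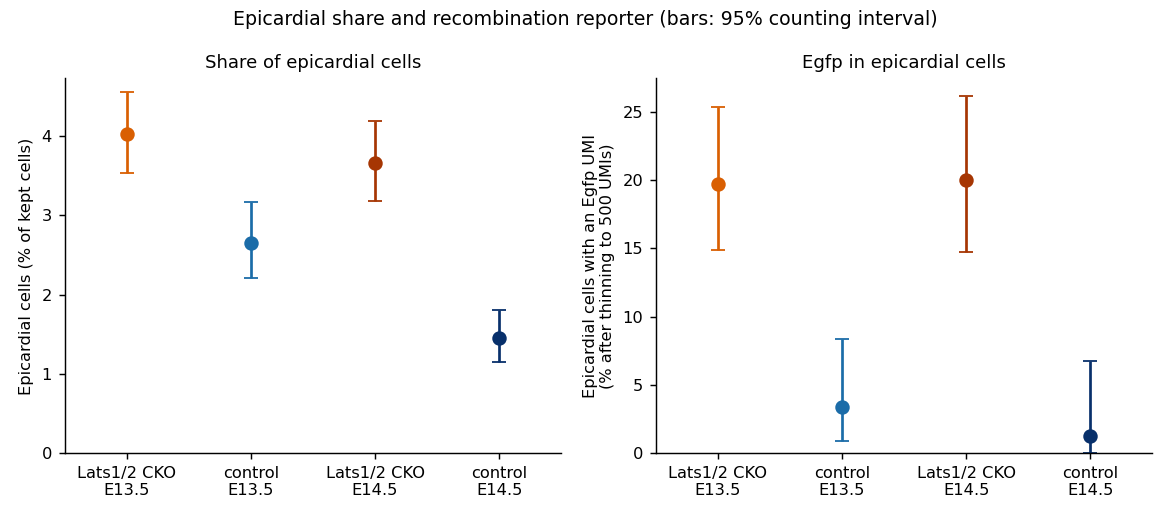
Left, share of kept cells that met the epicardial rule in each library (percent), and right, share of epicardial cells with an Egfp UMI after thinning to 500 UMIs (percent), with Lats1/2 CKO left of control at each stage. Points are libraries and bars 95% counting intervals, and the CKO points stand above control at both stages in both panels (4.02% and 3.66% on the left, 19.7% and 20% on the right).

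Among the targeted genes, Lats2 (chr14:57689662-57758388, minus strand) stood at 28.8 CPM in CKO and 58.1 CPM in control epicardial cells at E13.5, and at 47.5 CPM in CKO and 77.7 CPM in control cells at E14.5. These levels rest on 25 UMIs in CKO and 26 in control cells at E13.5 and on 25 in CKO and 14 in control cells at E14.5, and the log2 ratios were -1.01 (-1.86 to -0.16) and -0.73 (-1.71 to 0.35). Lats1 (chr10:7681214-7716460, plus strand) stood at 18.5 CPM in CKO and 26.8 CPM in control cells at E13.5, and at 22.8 CPM in CKO and 44.4 CPM in control cells at E14.5, with intervals that include 0. Both were lower in CKO cells in each pair of libraries, but without the deepest 5% of cells the E13.5 ratio of Lats1 was 0.11 (-1.54 to 2.32). Neither passed edgeR's quasi-likelihood test (adjusted p = 0.775 for Lats2 and 0.841 for Lats1). Tags counted outside the floxed exons cannot show the deletion, and where the tags fell was not examined. Of their targets, Yap1 stood at 49.6 CPM in CKO and 112 CPM in control cells at E13.5, and at 55.0 CPM in CKO and 61.1 CPM in control cells at E14.5. Wwtr1, which encodes TAZ, stood at 84.2 CPM in CKO and 134 CPM in control cells at E13.5, and at 74.0 CPM in CKO and 83.3 CPM in control cells at E14.5. Of 21 Hippo pathway genes tested, 8 had a ratio above 0 and 6 below 0 at both stages, and 0 of them passed. Over all genes tested, 24.92% had a ratio above 0 and 29.88% below 0 at both stages.

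Egfp, the transcript of recombined cells, was 1 of the 3 genes that passed the test of genotype. It had 571 CPM in CKO and 82.7 CPM in control epicardial cells at E13.5, and 558 CPM in CKO and 33.3 CPM in control cells at E14.5. The log2 ratios were 2.77 (2.30 to 3.31) and 3.95 (2.93 to 5.52), and Egfp rose in edgeR's quasi-likelihood test with genotype and stage as terms (log2 3.20, SE 0.32, adjusted p = 0.0222). The transcript was spread over 102 CKO and 14 control cells at E13.5, and over 79 CKO and 4 control cells at E14.5. After thinning to 500 UMIs it was seen in 19.7% of CKO and 3.36% of control epicardial cells at E13.5, and in 20% of CKO and 1.25% of control epicardial cells at E14.5. In other cells it was seen in 1.81% of CKO and 0.67% of control cells at E13.5 and in 1.43% of CKO and 1.07% of control cells at E14.5, so the control epicardial value at E14.5 was near this background. Cells with at least 1% cardiomyocyte genes gave 0.54 to 1.63% after thinning.

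The Cre transcript stood higher as well. Creert2 had 84.2 CPM in CKO and 31.3 CPM in control epicardial cells at E13.5, and 49.4 CPM in CKO and 5.55 CPM in control cells at E14.5, where the control value is a single UMI. Its edgeR log2 value was 1.77 (SE 0.48, adjusted p = 0.626), its E14.5 ratio without the deepest 5% of cells was 2.08 (-0.08 to 8.01), and it was seen in 51 CKO and 12 control cells at E13.5 and in 19 CKO and 1 control cell at E14.5. In other cells Creert2 had 5.55 CPM in CKO and 1.68 CPM in control hearts at E13.5, and 3.61 CPM in CKO and 0.834 CPM in control hearts at E14.5. It thus stood higher in CKO hearts there too, at a lower level. Both genotypes carry this allele by the labels. Wt1, at the same locus, stood at 154 CPM in CKO and 235 CPM in control epicardial cells at E13.5, and at 222 CPM in CKO and 217 CPM in control cells at E14.5. Tdtomato, the transcript of unrecombined cells, gave 14 UMIs in CKO and 10 in control cells at E13.5 and 5 in CKO and 2 in control cells at E14.5.

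Across all genes the genotype test called little. Of 8093 genes tested, 3 rose (0.0371%) and 0 fell (0.00%) in CKO epicardial cells, with 513 at an unadjusted p under 0.05, and DESeq2 called 4 higher and 1 lower. Besides Egfp the 3 were Rps13-ps1 and Gm11942, and both moved alike in cells of other types. Rps13-ps1, a ribosomal protein pseudogene, had 302 CPM in CKO and 6.71 CPM in control epicardial cells at E13.5, and 440 CPM in CKO and 5.55 CPM in control epicardial cells at E14.5. Other cells had 330 CPM of it in CKO and 3.17 CPM in control hearts at E13.5, and 385 CPM in CKO and 1.31 CPM in control hearts at E14.5. Gm11942 had 778 CPM in CKO and 150 CPM in control epicardial cells at E13.5, and 972 CPM in CKO and 183 CPM in control epicardial cells at E14.5. In other cells it had 747 CPM in CKO and 119 CPM in control hearts at E13.5, and 885 CPM in CKO and 181 CPM in control hearts at E14.5. Reads of pseudogenes can be shared with near-identical parent genes, so these values are uncertain, and differences between single libraries cannot be told apart from genotype. Lrat, which stores retinol as an ester, had 26.5 CPM in CKO and 0 CPM in control epicardial cells at E13.5 (at least 3.96-fold higher, with 3 counts in the control library as floor), and 28.5 CPM in CKO and 5.55 CPM in control epicardial cells at E14.5. In other cells Lrat had 6.97 CPM in CKO and 0 CPM in control hearts at E13.5, and 9.08 CPM in CKO and 0.12 CPM in control hearts at E14.5.

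The fit had 1 residual degree of freedom, and genes were also described by their counting intervals at the 2 stages. Of 10360 genes with at least 20 UMIs, 126 (1.22%) had intervals above 0 at both stages and 121 (1.17%) below 0 at both. Among the 8093 genes tested these were 124 (1.53%) and 120 (1.48%), and 24.92% of the tested genes had a ratio above 0 at both stages with 29.88% below. Without the deepest 5% of cells the counts were 67 above, 52 of them among the 126, and 55 below, 37 of them among the 121. In epicardial cells with no haemoglobin UMI (40 in CKO and 53 in control hearts at E13.5, 43 in CKO and 19 in control hearts at E14.5) they were 13 above and 13 below, of 2735 genes.

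**Figure D3:**
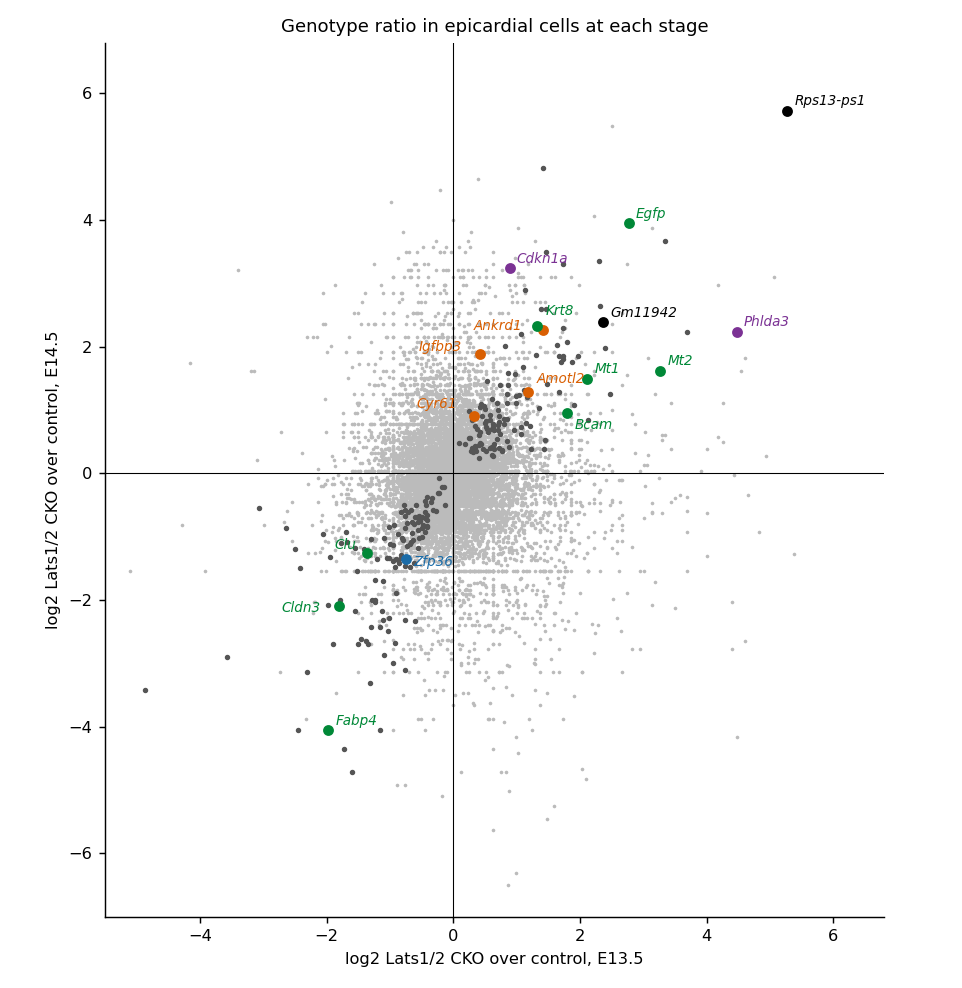
Log2 ratio of Lats1/2 CKO over control in epicardial cells at E13.5 (horizontal axis) and E14.5 (vertical axis), 1 point per gene with at least 20 UMIs; dark points have counting intervals on the same side of 0 at both stages, and named genes are coloured by list. Egfp, Rps13-ps1 and Gm11942 stand far out in the upper right, with Krt8, Ankrd1 and Amotl2 nearer the middle and Clu, Cldn3 and Fabp4 in the lower left; Phlda3 had 0 UMIs in control E13.5, so its place there depends on the prior of 0.5 count.

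YAP target genes stood above control as a group, though 0 passed the test over all genes. Of 18 tested members, 11 had a ratio above 0 and 3 below 0 at both stages, beside 24.92% and 29.88% of all tested genes. The median log2 value of the members was 0.31 in the genotype fit against 0.01 over all genes tested. In other cells their median was 0.04 for E13.5 and 0.08 for E14.5. Counting intervals lay above 0 at both stages for 4 of the 18 (Ankrd1, Amotl2, Cyr61 and Igfbp3), beside the 1.53% of all tested genes. The list was chosen with earlier results of these libraries known.

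The 4 genes are shown with a TEAD-type motif searched in the 250 bases before their RefSeq start (GRCm38.p6), because TEAD factors are the DNA-binding partners of YAP and TAZ. The motif was GGAATG on either strand, printed in capitals as GGAATG or CATTCC, and 12.6% of all 32851 such windows hold it. Of the 17 windows of listed YAP targets, 7 held it (Ajuba, Amotl2, Ankrd1, Axl, Ccn1, Crim1 and Ptpn14). A match describes letters in this window and not a site in use. Ankrd1 had 2 matches, beginning 210 and 123 bases before the start, and Amotl2 had 1, beginning 65 bases before it. The windows of Ankrd1 and Amotl2 lie wholly inside the annotated gene spans given below, and annotated exons overlap them. Their sites are therefore given with 12 bases on each side. The Cyr61 window (Ccn1 in RefSeq), which no annotated exon overlaps, is given whole with its match 103 bases before the start. The Igfbp3 window, chr11:7213924-7214173, held no match.
Ankrd1 site 1, chr19:36120037-36120066, minus strand: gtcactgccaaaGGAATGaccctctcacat
Ankrd1 site 2, chr19:36119950-36119979, minus strand: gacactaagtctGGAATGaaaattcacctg
Amotl2 site, chr9:102717727-102717756, plus strand: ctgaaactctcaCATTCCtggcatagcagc
Cyr61 window, chr3:145649986-145650235, minus strand: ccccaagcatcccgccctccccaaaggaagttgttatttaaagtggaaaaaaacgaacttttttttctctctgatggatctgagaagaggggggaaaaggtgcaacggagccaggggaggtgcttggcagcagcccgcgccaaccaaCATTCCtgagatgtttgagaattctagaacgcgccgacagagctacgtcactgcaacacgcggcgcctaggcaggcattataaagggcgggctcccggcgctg

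Ankrd1, a nuclear ankyrin-repeat protein and common YAP readout (chr19:36111961-36120099, minus strand), had 79.6 CPM in CKO and 29.1 CPM in control epicardial cells at E13.5, and 226 CPM in CKO and 44.4 CPM in control cells at E14.5. The log2 ratios were 1.41 (0.59 to 2.43) and 2.27 (1.32 to 3.59), and in the genotype fit the value was 1.88 (SE 0.36, edgeR adjusted p = 0.404). It came from 34 CKO and 9 control cells at E13.5 and from 41 CKO and 7 control cells at E14.5, and the ratios without the deepest 5% of cells were 1.18 and 2.55. Ankrd1 is also a cardiomyocyte gene, with 907 to 1776 CPM in the other cells of the 4 libraries, and its part as free cardiomyocyte RNA was not tested. In those other cells the ratios were -0.17 at E13.5 and 0.19 at E14.5.

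Amotl2, an angiomotin that binds YAP and is itself induced by it (chr9:102716672-102733418, plus strand), had 189 CPM in CKO and 82.7 CPM in control epicardial cells at E13.5, and 249 CPM in CKO and 99.9 CPM in control cells at E14.5. The log2 ratios were 1.18 (0.67 to 1.75) and 1.28 (0.60 to 2.11), with 1.26 in the fit (SE 0.26, edgeR adjusted p = 0.404). Without the deepest 5% of cells they were 0.87 (0.22 to 1.63) and 0.76 (-0.20 to 1.97), so the E14.5 interval then includes 0. Cyr61, a matricellular ligand of integrins, had 827 CPM in CKO and 660 CPM in control cells at E13.5, and 902 CPM in CKO and 477 CPM in control cells at E14.5 (log2 ratios 0.33 and 0.91). The insulin-like growth factor binding protein gene Igfbp3 had 457 CPM in CKO and 340 CPM in control cells at E13.5, and 767 CPM in CKO and 205 CPM in control cells at E14.5. Its E13.5 log2 ratio of 0.42 became 0.23 (-0.15 to 0.64) without the deepest 5% of cells. Ctgf, a second matricellular target, had 110 CPM in CKO and 73.8 CPM in control cells at E13.5 (0.56, -0.01 to 1.19), and 192 CPM in CKO and 22.2 CPM in control cells at E14.5 (2.95, 1.71 to 5.01). The Ctgf ratios without the deepest 5% of cells were 1.16 (0.34 to 2.18) and 1.32 (-0.06 to 3.44).

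The targets of p53, the factor that halts the cell cycle after DNA damage, stood higher as well. Of 12 tested, 8 had a ratio above 0 and 2 below 0 at both stages, and the median log2 value was 0.57 in epicardial cells, while the median in other cells was -0.09 for E13.5 and 0.00 for E14.5. Over all tested genes 24.92% had a ratio above 0 and 29.88% below 0 at both stages. Intervals lay above 0 at both stages for Cdkn1a, Ccng1, Bax and Phlda3, beside 1.53% of all tested genes, and 0 of the 12 passed the test over all genes. Cdkn1a, the kinase inhibitor p21 (chr17:29090976-29100727, plus strand), had 105 CPM in CKO and 55.9 CPM in control epicardial cells at E13.5, and 235 CPM in CKO and 22.2 CPM in control cells at E14.5. It was seen in 42 CKO and 5 control cells at E13.5 and in 51 CKO and 2 control cells at E14.5, and its edgeR log2 value was 1.77 (SE 0.49, adjusted p = 0.668). Cyclin G1 gene Ccng1 had 240 CPM in CKO and 121 CPM in control cells at E13.5, and 258 CPM in CKO and 117 CPM in control cells at E14.5 (log2 ratios 0.98 and 1.12). In other cells Ccng1 ratios were -0.10 and 0.00, and those of Cdkn1a -0.28 and -0.05.

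Phlda3, an inhibitor of AKT, had 21 UMIs in CKO and 0 in control epicardial cells at E13.5 (at least 3.61-fold higher), and 34 in CKO and 2 in control cells at E14.5 (log2 ratio 2.24, 0.58 to 5.64). Its E14.5 ratio without the deepest 5% of cells was 1.65 (-0.61 to 7.596), an interval that includes 0. The apoptosis gene Bax had 115 CPM in CKO and 49.2 CPM in control cells at E13.5, and 190 CPM in CKO and 111 CPM in control cells at E14.5. In other cells the Bax ratio was as large at E13.5 (1.21) and 0.12 at E14.5. After thinning to 500 UMIs, at least 1 of Cdkn1a, Ccng1, Bax and Phlda3 was seen in 22.7% of CKO and 8.403% of control epicardial cells at E13.5, and in 26.3% of CKO and 5% of control epicardial cells at E14.5. In other cells this share was 15.7% in CKO and 12.6% in control hearts at E13.5, and 14.9% in CKO and 13.8% in control hearts at E14.5. These 4 genes were put together after their values had been seen.

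**Figure D4:**
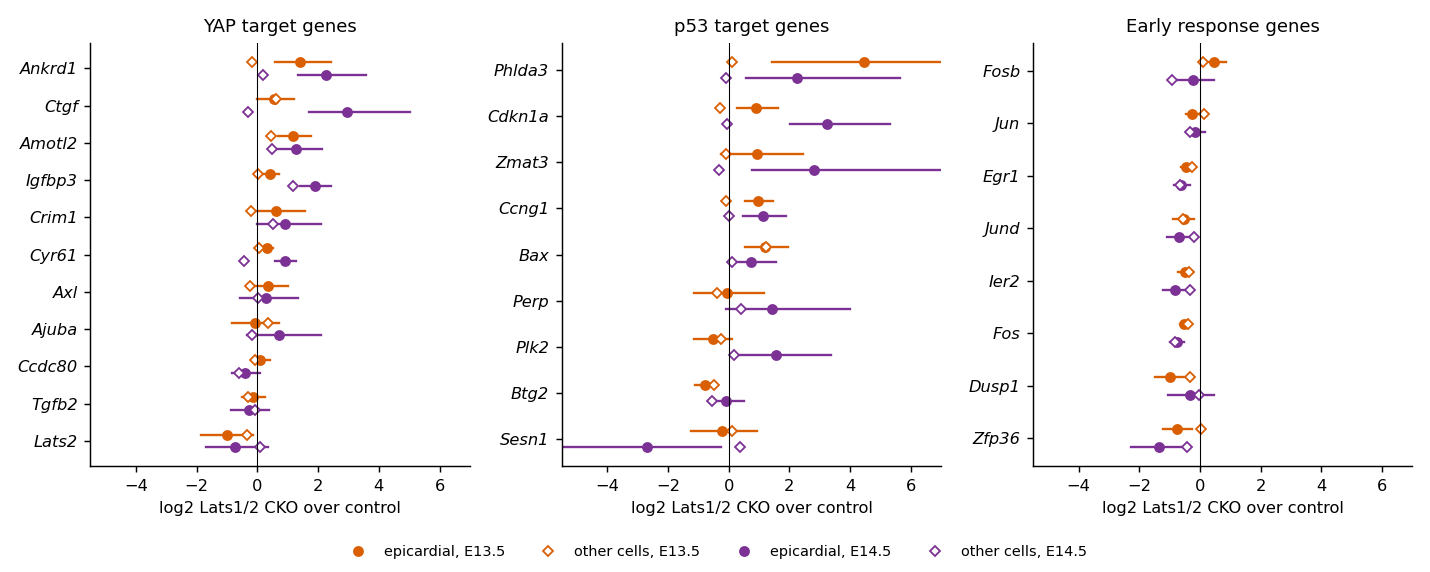
Log2 ratio of Lats1/2 CKO over control in epicardial cells (filled points, bars are 95% counting intervals) and in other cells (open diamonds) for named members of the YAP target, p53 target and early response lists, with E13.5 above E14.5 for each gene. Over all tested members the E13.5 and E14.5 epicardial medians are 0.17 and 0.40 for YAP targets, 0.42 and 0.93 for p53 targets and -0.47 and -0.41 for early response genes. Bars are cut at the panel edge, and the Phlda3 point at E13.5 depends on the prior of 0.5 count.

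Cell cycle genes also stood above control more often than below. Of 26 genes of G2 and M phase, 13 had a ratio above 0 and 1 below 0 at both stages, with a median log2 value of 0.39. Of 24 tested S phase genes 12 stood above and 2 below, with a median of 0.25. Over all tested genes 24.92% stood above and 29.88% below 0 at both stages. None of either list passed in edgeR over all genes, and 4 and 1 members had an unadjusted p under 0.05. Mki67, a mark of cycling cells, had 248 CPM in CKO and 159 CPM in control epicardial cells at E13.5, and 209 CPM in CKO and 128 CPM in control cells at E14.5 (log2 ratios 0.64 and 0.69). Top2a, which untangles replicated DNA, had 391 CPM in CKO and 342 CPM in control cells at E13.5, and 262 CPM in CKO and 272 CPM in control cells at E14.5. Of the 2 genes only Mki67 had intervals above 0 at both stages, and without the deepest 5% of cells its E14.5 ratio was 0.70 (-0.13 to 1.69).

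Mesothelial identity genes outside the rule showed no common direction. Of 20 tested, 3 stood above and 7 below control at both stages, beside 24.92% and 29.88% of all tested genes. The median log2 value of these 20 was -0.23. The simple keratin Krt8 (chr15:101996698-102004482, minus strand) had 69.2 CPM in CKO and 26.8 CPM in control cells at E13.5, and 152 CPM in CKO and 27.8 CPM in control cells at E14.5. Its log2 ratios were 1.32 (0.46 to 2.40) and 2.32 (1.17 to 4.11), from 40 CKO and 10 control cells at E13.5 and 44 CKO and 5 control cells at E14.5, and its edgeR value was 1.82 (SE 0.40, adjusted p = 0.404). The E13.5 ratio of Krt8 without the deepest 5% of cells was 1.16 (-0.01 to 2.80). Krt18, its partner, had 209 CPM in CKO and 224 CPM in control cells at E13.5, and 309 CPM in CKO and 194 CPM in control cells at E14.5, so the pair did not move alike at E13.5. Clu, the secreted chaperone, had 81.9 CPM in CKO and 210 CPM in control cells at E13.5, and 70.2 CPM in CKO and 167 CPM in control cells at E14.5 (log2 ratios -1.36 and -1.25, edgeR adjusted p = 0.404). In other cells the Clu ratios were -0.65 and -0.50. The tight junction gene Cldn3 had 31 or fewer UMIs in each library, at 19.6 CPM in CKO and 69.3 CPM in control cells at E13.5, and at 11.4 CPM in CKO and 49.95 CPM in control cells at E14.5, where the ratio without the deepest 5% of cells was -1.53 (-3.60 to 0.42).

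Transcription factors of the epicardium differed by stage. Tbx18 had 256 CPM in CKO and 488 CPM in control epicardial cells at E13.5 (log2 ratio -0.93, -1.20 to -0.65), and 262 CPM in CKO and 250 CPM in control cells at E14.5 (0.06, -0.43 to 0.59). For Wt1 the E13.5 ratio was -0.62 (-0.99 to -0.23) and the E14.5 ratio 0.02 (-0.50 to 0.60). Tcf21, needed for the fibroblast fate, had 237 CPM in CKO and 331 CPM in control cells at E13.5, and 165 CPM in CKO and 128 CPM in control cells at E14.5. For all 3 the ratio was below 0 at E13.5 and above 0 at E14.5. The E13.5 ratio of Tcf21 without the deepest 5% of cells was -0.33 (-0.77 to 0.13), and the E14.5 ratios of Tbx18 and Wt1 were -0.09 (-0.78 to 0.69) and -0.05 (-0.76 to 0.74). In edgeR's test 0 of 13 tested factors of the list passed. Bnc1 had 115 CPM in CKO and 121 CPM in control cells at E13.5, and 114 CPM in CKO and 200 CPM in control cells at E14.5. The retinoid reductase gene Dhrs3, which retinoic acid induces, had 33 UMIs in CKO and 7 in control cells at E13.5 and 13 in CKO and 4 in control cells at E14.5 (log2 ratios 1.20 and 0.04).

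Genes of the matrix, of secreted signals and of fibroblasts leaned both ways. Bcam, a laminin receptor (chr7:19756131-19771016, minus strand), had 190 CPM in CKO and 53.7 CPM in control epicardial cells at E13.5, and 391 CPM in CKO and 200 CPM in control cells at E14.5. Its log2 ratios were 1.80 (1.20 to 2.51) and 0.95 (0.45 to 1.52), with 1.39 in the fit (SE 0.28, edgeR adjusted p = 0.404), and it was the only gene of 22 tested basement membrane genes with intervals above 0 at both stages. Of those 22, 15 stood above and 3 below control at both stages, beside 24.92% and 29.88% of all tested genes. The proteoglycan gene Dcn had 1933 CPM in CKO and 3214 CPM in control cells at E13.5, and 2003 CPM in CKO and 3452 CPM in control cells at E14.5 (log2 ratios -0.73 and -0.79, edgeR adjusted p = 0.452). A second proteoglycan gene, Lum, had 117 CPM in CKO and 251 CPM in control cells at E13.5, and 32.3 CPM in CKO and 106 CPM in control cells at E14.5. Dcn and Lum were the fibroblast genes of 17 tested with intervals below 0 at both stages, although their levels in other cells differed by 0.10 and -0.35 for Dcn and by -0.23 and -0.27 for Lum. The E14.5 ratio of Lum without the deepest 5% of cells was -0.99 (-2.46 to 0.57).

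Among 18 tested secreted signal genes, 3 stood above and 8 below control at both stages, beside 24.92% and 29.88% of all tested genes. The heparin-binding growth factor gene Ptn had 2604 CPM in CKO and 3804 CPM in control epicardial cells at E13.5, and 1729 CPM in CKO and 3508 CPM in control cells at E14.5. Mdk, its close relative, had 1724 CPM in CKO and 1899 CPM in control cells at E13.5, and 1319 CPM in CKO and 1870 CPM in control cells at E14.5. The Ptn ratios (-0.55 and -1.02) were larger in size than those of Mdk (-0.14 and -0.50), and in other cells Ptn stood at -0.31 and -0.75. Dpp4, a surface peptidase of mesothelium and of some fibroblasts, had 523 CPM in CKO and 349 CPM in control epicardial cells at E13.5, and 531 CPM in CKO and 400 CPM in control cells at E14.5 (0.58 and 0.40). In other cells the Dpp4 ratios were 0.95 and 1.27, above those of the epicardial cells. Without the deepest 5% of cells the epicardial ratios were 0.33 (0.00 to 0.68) and 0.20 (-0.30 to 0.75).

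Early response genes, which the dissociation of tissue can induce, stood lower in CKO epicardial cells. Of 18 tested, 1 had a ratio above 0 and 11 below 0 at both stages, beside 24.92% and 29.88% of all tested genes. The median log2 value of the list was -0.48. Intervals lay below 0 at both stages for Fos, Egr1, Ier2, Jund and Zfp36, beside 1.48% of all tested genes. Without the deepest 5% of cells the intervals included 0 for Jund at E14.5 (-0.23, -0.79 to 0.37) and for Zfp36 at E13.5 (-0.56, -1.16 to 0.08). Fos, a subunit of AP-1, had 1209 CPM in CKO and 1740 CPM in control cells at E13.5, and 843 CPM in CKO and 1415 CPM in control cells at E14.5. Zfp36, which shortens the life of messenger RNAs, had 100 CPM in CKO and 168 CPM in control cells at E13.5, and 43.7 CPM in CKO and 111 CPM in control cells at E14.5. The medians of the list in other cells were -0.26 for E13.5 and -0.43 for E14.5, so the lower level was not limited to the epicardial cells. Glycolysis and hypoxia genes likewise stood above control in both sets. In epicardial cells 10 of 17 tested stood above at both stages and 0 below, beside 24.92% and 29.88% of all tested genes. The median of this list was 0.43 in epicardial cells, while other cells had 0.43 for E13.5 and 0.27 for E14.5. Eno1 (enolase) had 343 CPM in CKO and 163 CPM in control epicardial cells at E13.5, and 530 CPM in CKO and 316 CPM in control cells at E14.5.

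The metallothionein genes, whose proteins bind zinc and copper, stood among the highest ratios. Mt1 (chr8:94179082-94180327, plus strand) had 188 CPM in CKO and 42.5 CPM in control epicardial cells at E13.5, and 414 CPM in CKO and 144 CPM in control cells at E14.5. Its log2 ratios were 2.11 (1.46 to 2.91) and 1.496 (0.93 to 2.17), and its edgeR value was 1.83 (SE 0.27, adjusted p = 0.149). The neighbouring Mt2 (chr8:94172664-94173568, plus strand) had 46 UMIs in CKO and 2 in control cells at E13.5 and 67 in CKO and 7 in control cells at E14.5. In other cells Mt1 ratios were 1.03 and 0.56, so the sign was shared and the size was not.

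Further genes were named by the size of the smaller of their 2 stage ratios. Gadd45g, a stress-induced growth arrest gene, had 126 CPM in CKO and 33.5 CPM in control epicardial cells at E13.5, and 122 CPM in CKO and 33.3 CPM in control cells at E14.5 (log2 ratios 1.87 and 1.76, edgeR adjusted p = 0.332), with -0.04 and -0.20 in other cells. The lipase gene Mgll had 49.6 CPM in CKO and 13.4 CPM in control cells at E13.5, and 127 CPM in CKO and 27.8 CPM in control cells at E14.5. Psrc1, a spindle protein, had 41 UMIs in CKO and 5 in control cells at E13.5 and 26 in CKO and 2 in control cells at E14.5. These 3 were spread over 18 to 46 CKO cells and 2 to 10 control cells per library, and without the deepest 5% of cells the E14.5 ratio of Psrc1 was 1.98 (-0.20 to 7.92). The epoxide hydrolase gene Ephx1, the nucleolar gene Nop56 and the peptide hormone gene Adm rested on 0 or 1 control UMI in each library. Nop56 had 18 UMIs in CKO and 0 in control cells at E14.5 (at least 2.05-fold higher), and Adm had 12 in CKO and 0 in control cells at E13.5 (at least 2.06-fold higher). With the deepest 5% of cells left out, the intervals of Nop56 and Adm included 0 at both stages and that of Ephx1 at E14.5.

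The downward ranks held several genes set by 1 cell. Nts (neurotensin) had 2 UMIs in CKO and 37 in control epicardial cells at E13.5, and 97.3% of the control UMIs came from 1 cell. With the deepest 5% of cells left out, its intervals included 0 at both stages. Fabp4, a lipid carrier of capillary endothelium, had 16.2 CPM in CKO and 64.9 CPM in control cells at E13.5, and 7.59 CPM in CKO and 139 CPM in control cells at E14.5, with 82.8% and 72.0% of the control UMIs in 1 cell each. Few UMIs also stood behind Lhx9, a LIM homeobox gene, with 10 UMIs in CKO and 16 in control cells at E13.5 and 0 in CKO and 4 in control cells at E14.5, and Hagh of the glyoxalase pathway, at 12.7 CPM in CKO and 44.7 CPM in control cells at E13.5, and at 9.49 CPM in CKO and 38.9 CPM in control cells at E14.5. At E14.5 the 4 control UMIs of Lhx9 came from 2 cells, with 75% in 1 of them, and the Hagh UMIs came from 4 control cells, with 57.1% in 1. The E14.5 ratio of Hagh without the deepest 5% of cells was -0.55 (-4.55 to 5.59).

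Whether a genotype difference was larger in epicardial than in other cells was tested in 1 fit over the 8 sums. Of 16538 genes, 63 had a higher (0.381%) and 23 a lower (0.139%) genotype effect in epicardial cells by edgeR's quasi-likelihood test with Benjamini-Hochberg adjustment. The difference had the same sign at both stages for 79 of the 86, but the calls pooled both stages, so this is no separate check. The count of calls rests on the tool, since DESeq2 called 0 higher and 1 lower, edgeR's bias-adjusted deviance 0 and 0, and limma-voom 22 and 13, of which 27 were among the 86. Without the deepest 5% of cells the edgeR count was 30 higher and 5 lower, and in cells with no haemoglobin UMI 0 and 0. The p-values of the edgeR fit rest on spread pooled over genes and not on the spread of each gene. Under this fit the difference was 1.98 for Ankrd1 (SE 0.32, edgeR adjusted p = 8.74e-07), 1.99 for Cdkn1a (0.31, 5.48e-07), 2.10 for Gadd45g (0.34, 8.74e-07), 1.23 for Ccng1 (0.23, 8.97e-05), 1.14 for Mt1 (0.25, 0.00217) and 1.06 for Bcam (0.26, 0.0135). Egfp differed by 2.17 (SE 0.27, adjusted p = 2.01e-11). Amotl2 (0.89, adjusted p = 0.179) and Krt8 (1.82, adjusted p = 0.329) did not pass, nor did Gm11942 (0.01, adjusted p = 1), whose ratio was alike in both sets. The neurofilament-class gene Prph (peripherin) was called on 5 UMIs in CKO and 0 in control epicardial cells at E13.5 and on 65 UMIs in 37 CKO cells and 0 in control cells at E14.5 (at least 7.41-fold higher at E14.5).

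Epicardial cells also differed between the stages, in the same direction in both genotypes for a small set of genes. Of 10360 genes with at least 20 UMIs, 176 (1.70%) had counting intervals above 0 and 217 (2.09%) below 0 for E14.5 over E13.5 in CKO and in control cells alike, with 1 library per stage and genotype and no test. The largest upward ratios were those of ribosomal protein genes, such as Rpl23a, at 905 CPM at E14.5 and 5.77 CPM at E13.5 in CKO cells (log2 7.16) and at 833 CPM at E14.5 and 6.71 CPM at E13.5 in control cells (6.74). Rpl23a was chosen after its values were seen, and in other cells its ratios were 5.73 in CKO and 5.93 in control hearts, on the same side as in epicardial cells. With 1 library per genotype and stage, differences between libraries, in how they were made or counted, cannot be told apart from stage.

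Among genes of the sheet, mesothelin (Msln), a marker of the rule, stood higher at E14.5 by 0.96 in CKO and 0.84 in control cells on the log2 scale. Klf4, a zinc finger factor of epithelia, had 144 CPM at E14.5 and 73.8 CPM at E13.5 in CKO cells, and 172 CPM at E14.5 and 73.8 CPM at E13.5 in control cells, with ratios of 0.22 and -0.13 in the other cells of CKO and control hearts. The collagen genes Col1a1 (0.59 in CKO and 0.79 in control cells) and Col4a1 (0.71 in CKO and 0.61 in control cells) stood higher at E14.5. Tcf21 (-0.51 in CKO and -1.35 in control cells), the chemokine gene Cxcl12 (-2.12 and -1.41) and the proteoglycan gene Lum (-1.82 and -1.22) stood lower at E14.5. In other cells Tcf21, Cxcl12 and Lum stood lower too, at -1.24, -0.98 and -1.25 in CKO hearts.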

How the data were processed

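The deposited table gives unnormalized counts, the number of UMIs for each of 30268 genes in each of 24849 Drop-seq cells, from 4 libraries. Cell names gave stage and genotype, and 0 columns were left unused. Per the submitters' processing notes, reads were handled with STAR, Picard and the mm10 build; versions, gene models and strand use are not given in the sources used here. The design text names a slightly different earlier day than the sample labels, and the labels were used. Cells with at least 500 UMIs and at most 20% mitochondrial UMIs were kept, and no doublet caller was run.

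Counts were summed over the epicardial and over the other kept cells of each library (pseudobulk). CPM used these sums without scaling, and 0.5 was added to each count for log2 ratios within a stage. Ratios have exact binomial intervals conditional on the total (95%), shares have Clopper-Pearson intervals, and a ratio against 0 counts used a floor of 3 counts per library. Detection shares were taken after thinning to 500 UMIs where the text says so. Those of Upk3b in epicardial cells and those at the edge of the rule were not thinned. Tests were edgeR 4.0.16 quasi-likelihood fits (R 4.3.3, TMM, filterByExpr, legacy method, Benjamini-Hochberg at 0.05). The genotype fit had genotype and stage as terms and 1 residual degree of freedom, the fit of epicardial against other cells had the library as block and 3, and the fit of the difference of genotype effects had 1. The 12 genes of the rule were left out of the tests. DESeq2 1.42.0, limma 3.58.1 (voom), other scalings, no count filter, other cell rules and cells without haemoglobin were alternatives, and the last, with the bias-adjusted edgeR and voom, was chosen after seeing the data. The fits were checked on simulated counts.

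Members and gene lists were chosen with earlier results of these data known. Genes were named by rule: the rule markers and followed genes, genes past the test, the 12 largest per direction by the smaller stage ratio with both intervals off 0 and at least 20 UMIs, the largest and most abundant members of each list, the 20 leading genes against other cells and calls of the difference fit. Of 314 named genes, 306 matched GENCODE M21 (GRCm38), which gave coordinates. Sequences are from RefSeq (GRCm38.p6). Replicates within a genotype and stage do not exist here. The genotype p-values rest on how the genotype ratio differed between the stages and, more so, on spread pooled over genes. In that fit the pooled spread had 7.05 prior degrees of freedom beside the 1 residual. The p-values of the difference fit rest on pooled spread.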

Additional observations from a re-analysis of the deposited data

Results flagged for a closer look

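Genes were listed here when the counting interval of the log2 ratio of Lats1/2 CKO over control in epicardial cells lay on opposite sides of 0 at E13.5 and E14.5. With 1 library per genotype and stage the difference between the stages was not tested for any of them.

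The chemokine genes Ccl2 (-4.16 at E13.5 and 1.74 at E14.5) and Ccl7 (-3.40 and 3.21) were flagged, and 1 control E13.5 cell held 78.9% of the Ccl2 and 87.7% of the Ccl7 UMIs of that library's epicardial cells. With the deepest 5% of cells left out, intervals included 0 for Ccl7 at both stages and for Ccl2 at E14.5 (1.77, -0.46 to 7.71). Of cell surface genes, the potassium channel subunit Kcne1l stood at -0.78 and 1.87, P-cadherin (Cdh3) at -0.46 and 0.91 and the adhesion gene Alcam at -0.37 and 0.54. Without the deepest 5% of cells both intervals of Kcne1l included 0 (-0.35, -1.08 to 0.44, and 1.34, -0.49 to 4.79). Both intervals of Alcam did so too (-0.22, -0.61 to 0.18, and 0.21, -0.49 to 0.998). For Cdh3 the E13.5 interval then included 0 (-0.40, -0.92 to 0.16). The YAP partner gene Tead1 stood at -0.48 and 0.63, the hypoxia-responsive gene Ndrg1 at -0.95 and 1.35, the growth factor gene Igf2 at -0.26 and 0.11 and vimentin (Vim) at -0.12 and 0.25. Leaving out the deepest 5% of cells brought 0 into the E14.5 intervals of Tead1 (0.61, -0.25 to 1.66) and Igf2 (0.06, -0.07 to 0.20). It also did so for Ndrg1 at E13.5 (-0.59, -1.51 to 0.39). For Vim both intervals then included 0 (0.06, -0.08 to 0.21, and 0.19, -0.09 to 0.48).

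Transcripts of other cell types were flagged too. The cardiomyocyte genes Myl2 (2.02 and -0.51) and Tnnc1 (2.07 and -0.64) and the embryonic globin gene Hbb-y (1.52 and -0.62) stood above control at E13.5 and below it at E14.5. Myl7 leaned the other way, at -0.14 and 0.47. Intervals without the deepest 5% of cells included 0 for Myl7 at E13.5 (-0.03, -0.16 to 0.11) and for Myl2 at E14.5 (-0.49, -1.03 to 0.08). Of the Hbb-y UMIs of CKO E14.5 epicardial cells, 67.5% came from 1 cell. The E14.5 ratio of Hbb-y without the deepest 5% of cells was 0.64 (0.33 to 0.98), on the other side of 0. The part of these transcripts in the other ratios was not tested.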

How the results depend on the processing

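No paired analysis was possible because the groups share only 1 replicate number, beyond the stage term of the genotype fit and the library block of the fit against other cells. The count of genes higher in CKO epicardial cells, 3 as reported, was 1 with cells of at least 1000 UMIs and in limma-voom, 5 with at least 3 markers, cardiomyocyte genes under 0.5%, without the deepest 5% of cells, with library totals and with the bias-adjusted edgeR, 6 with 6 markers, mitochondrial share at most 10% and DESeq2 size factors, 55 with no count filter and 0 in cells with no haemoglobin UMI. The count lower, 0 as reported, was 1 with 6 markers, cardiomyocyte genes under 0.5%, without the deepest 5%, library totals and DESeq2, 2 with mitochondrial share at most 10% and the bias-adjusted edgeR, 3 with DESeq2 size factors and 35 with no filter. Against other cells, 460 genes were higher and 889 lower without haemoglobin-bearing cells, and 1883 were lower in DESeq2 and 1923 against other cells under 1% cardiomyocyte genes. The difference of genotype effects, 63 higher as reported, gave 41 with at least 3 markers, 30 without the deepest 5%, 36 with library totals, 39 with no filter, 36 against other cells under 1% cardiomyocyte genes, 33 without the stage term, 22 in limma-voom, and 0 in DESeq2, in the bias-adjusted edgeR and without haemoglobin-bearing cells. Its 23 lower became 5 without the deepest 5%, 13 in limma-voom, 1 in DESeq2, and 0 in the bias-adjusted edgeR and without haemoglobin-bearing cells. Intervals off 0 at both stages gave 67 above and 55 below without the deepest 5%, and 13 and 13 without haemoglobin-bearing cells, which leaves fewer cells and genes. The other causes were not tested. The signs turned for Wt1 (0.025), Tbx18 (0.058) and Tcf21 (0.35) at E14.5 alone, for Tcf21 without haemoglobin-bearing cells (0.059), and in the difference fit for Nts (0.73), Hbegf (0.28) and Pecam1 (1.38) without those cells and for Fst (1.46) and Hbegf (0.0072) without the deepest 5%. The ratios of shares kept their direction under all alternatives run. Scalings moved the median of all genes by at most 0.02 on the log2 scale. Genes with few UMIs in the 80 control E14.5 cells are limited by depth.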
